A study of Mus musculus with 10 samples.

Results

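The type I interferon induced antiviral genes examined here are 35 listed genes, among them the Isg15, Ifit, Mx, Oas, Parp and membrane restriction genes. They were found by symbol in the deposited expression table, and all 35 were present among its 29890 genes. RNA was sequenced from 10 tumors that B2905-M4, a mouse melanoma cell line, formed under the skin of female C57BL/6J mice. The mice were 7 to 8 weeks old when 3000000 cells were injected. In 5 tumors the cells overexpressed Adamts7, an enzyme that is secreted and cuts matrix proteins, and in the other 5 they carried a vector; these are called Adamts7 tumors and vector tumors. All tumors therefore share 1 cell line, 1 strain and 1 sex, and nothing in the labels gives separately made cell populations within a group, so the p-values measure the spread between these tumors. Harvest was on day 35 for 2 Adamts7 tumors, on day 45 for 3 tumors of each group and on day 50 for 2 vector tumors. Neither a day nor a size is tied to a tumor, so time of harvest and group cannot be told apart. The mice kept their own immune system, and bulk RNA mixes tumor cells with the host cells in the tumor. A lower value can mean fewer cells of a type or less RNA per cell, and these cannot be told apart.

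Type I interferons bind the receptor made of Ifnar1 and Ifnar2. The kinases Jak1 and Tyk2 then activate the factor ISGF3, which contains Stat2 and Irf9. ISGF3 binds the interferon-stimulated response element (ISRE) in the promoters of antiviral genes, whose products sense, cut, tag or block viral RNA and particles. Interferon-gamma acts mainly at another element, the GAS, and also induces part of the same genes, so a value of these genes does not tell which interferon was present.

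The promoters of the genes were searched for the letters of both elements. RefSeq promoter sequences of build GRCm38.p6, from 250 bases before to 50 bases after a start site, were matched by symbol for 26 of the 35 genes. The ISRE was searched as GAAA, any 2 bases and GAAA again, and the GAS as TTCNNNGAA, each on both strands and with overlapping matches kept. ISRE letters were in 13 of the 26 genes (50.0%), against 1079 of all 27025 genes in the table (3.99%). GAS letters were in 8 of the 26 (30.8%), against 9.55% of all genes. A match is a description of letters and not of a bound site.

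These stretches are shown because they span the range of the expression results: the tag gene Isg15, a pair of Ifit genes, Oas3 and Bst2 hold the ISRE letters, and Herc6 holds none. Each runs 5′ to 3′ on the gene's own strand, in lower case with ISRE letters in capitals (on the opposite strand they read TTTC, 2 bases, TTTC).
Isg15: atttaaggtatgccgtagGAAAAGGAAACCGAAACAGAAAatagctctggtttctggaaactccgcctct
Ifit1: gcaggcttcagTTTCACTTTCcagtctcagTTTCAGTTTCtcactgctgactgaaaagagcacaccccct
Ifit3: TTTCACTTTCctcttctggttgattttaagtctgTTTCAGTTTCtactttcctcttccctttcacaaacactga
Oas3: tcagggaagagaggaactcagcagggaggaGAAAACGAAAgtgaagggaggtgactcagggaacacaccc
Bst2: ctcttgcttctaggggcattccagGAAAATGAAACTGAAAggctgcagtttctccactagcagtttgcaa
Herc6: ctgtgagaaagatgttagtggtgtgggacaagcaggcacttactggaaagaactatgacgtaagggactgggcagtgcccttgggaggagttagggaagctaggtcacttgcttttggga

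The Isg15 stretch lies at chr4:156200845-156200914 on the minus strand and holds 3 overlapping matches, the nearest ending 56 bases before the start site. The Ifit1 stretch at chr19:34640774-34640843 and the Ifit3 stretch at chr19:34583373-34583446, both on the plus strand, hold 2 matches each, the nearest ending 75 and 112 bases before the start. Ifit3b carries the same 74 letters as Ifit3, at chr19:34607769-34607842. The Oas3 stretch at chr5:120777695-120777764 and the Bst2 stretch at chr8:71537557-71537626 are on the minus strand, with the nearest match ending 65 and 114 bases before the start. The Herc6 stretch is the 120 bases before its start at chr6:57580872-57580991 on the plus strand. None of these stretches overlaps an exon in the GENCODE annotation of that build, and the Herc6 stretch lies inside the intron of a predicted gene, Gm45193.

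The levels are TPM, transcript abundances scaled per transcript length and to a fixed total in each library. The scaling removes the depth, and how deeply each tumor was read is unknown. Between 21515 and 23859 genes were above 0 TPM per tumor. For Adamts7 itself, the first 4 Adamts7 tumors held 74.8 to 96.0 TPM, but the tumor labelled Adamts7 5 held 18.2 TPM, less than vector tumors 3 (28.3 TPM) and 5 (27.6 TPM). The other vector tumors held 6.49 to 8.57 TPM (exact two-sided permutation test, p = 0.0238, smallest possible 0.00794). The summed TPM of 7 melanocyte markers (Pmel, Mlana, Tyr, Tyrp1, Dct, Mitf, Sox10) was 312 and 1909 in vector tumors 3 and 5, against 8375 to 22967 in the other 8. Vector tumors 3 and 5 and the tumor labelled Adamts7 5 thus stand apart. Medians over the antiviral genes and over the upstream, interferon-gamma and cell marker lists are also given without vector tumors 3 and 5. Only some summaries are also given without the tumor labelled Adamts7 5.

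The antiviral genes were lower on average in the Adamts7 tumors, but none passed the test over all genes. All 35 passed the filter of a mean of at least 1 TPM and were among 15276 genes fitted with limma on log2(TPM + 1), a scale that understates changes of low genes. The log2 fold change, Adamts7 over vector, was negative for 34 of the 35, against 60.2% of all genes. Its median over the 35 was -0.83, with a range of -1.38 to 0.27, and the median of all genes was -0.10. None of the 35 had an adjusted p under 0.05 in limma (0.0695 to 0.810), where 0.196% of all genes passed as lower. At an unadjusted p under 0.05, 21 of the 35 (60%) were lower and none was higher, against 15.3% of all genes that were lower. When tumors were weighted by how variable they were, 5 of the 35 passed in limma, against 6.26% of all genes passing as lower.

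In the authors' deposited table, made from the same tumors, 8 of the 35 (22.9%) were lower in Adamts7 tumors at an adjusted p under 0.05, against 5.48% of its genes. The authors' deposited table gave Parp9 a log2 fold change of -1.17 (SE 0.25, adjusted p = 0.00036), Parp14 -1.32 (SE 0.30, adjusted p = 0.000881), Dtx3l -1.18 (SE 0.27, adjusted p = 0.00103) and Herc6 -1.45 (SE 0.34, adjusted p = 0.00157). The other 4 genes past that threshold in the authors' deposited table were Ifit2, Xaf1, Rtp4 and Eif2ak2, with adjusted p between 0.0136 and 0.0372. The direction differed between the sources for Ifitm3, which is at 0.09 in the authors' deposited table and -0.13 in limma, and Oasl1 was positive in both.

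**Figure D1:**
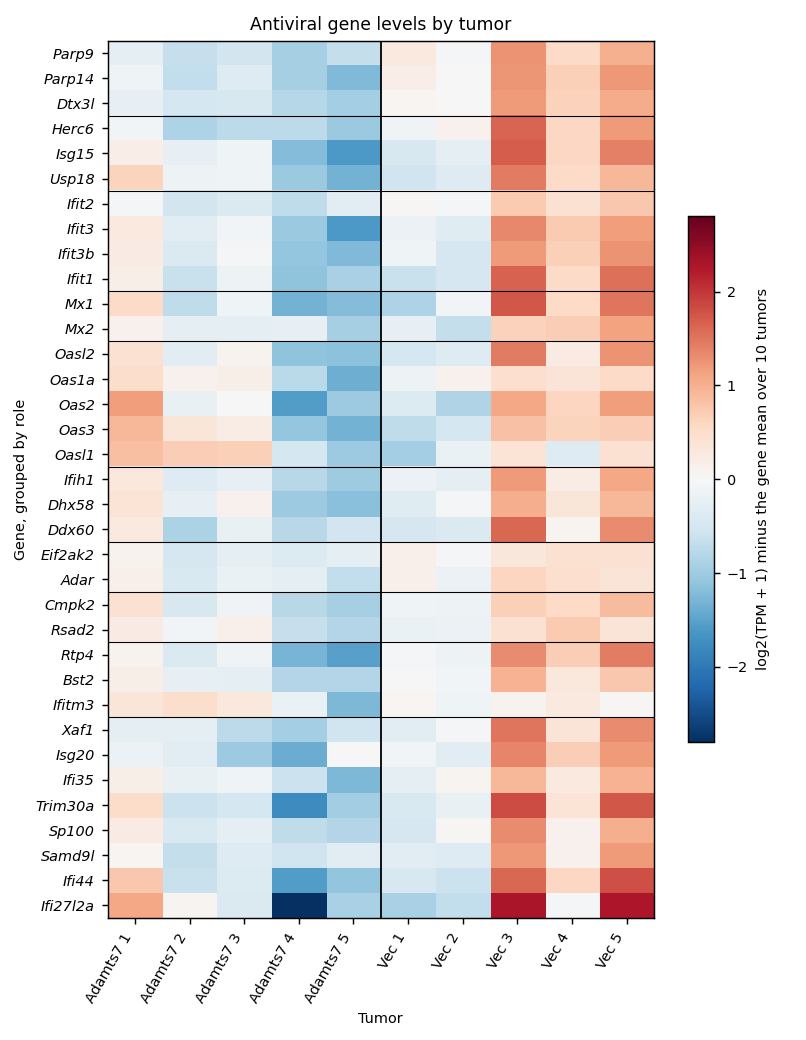
Heat map of the 35 genes (rows) in the 10 tumors (columns); the colour is log2(TPM + 1) minus the mean of that gene over the 10 tumors. Vector tumors 3 and 5 are high for most rows, Adamts7 tumors 4 and 5 are low, and Adamts7 tumor 1 resembles the middle of the vector group.

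**Figure D2:**
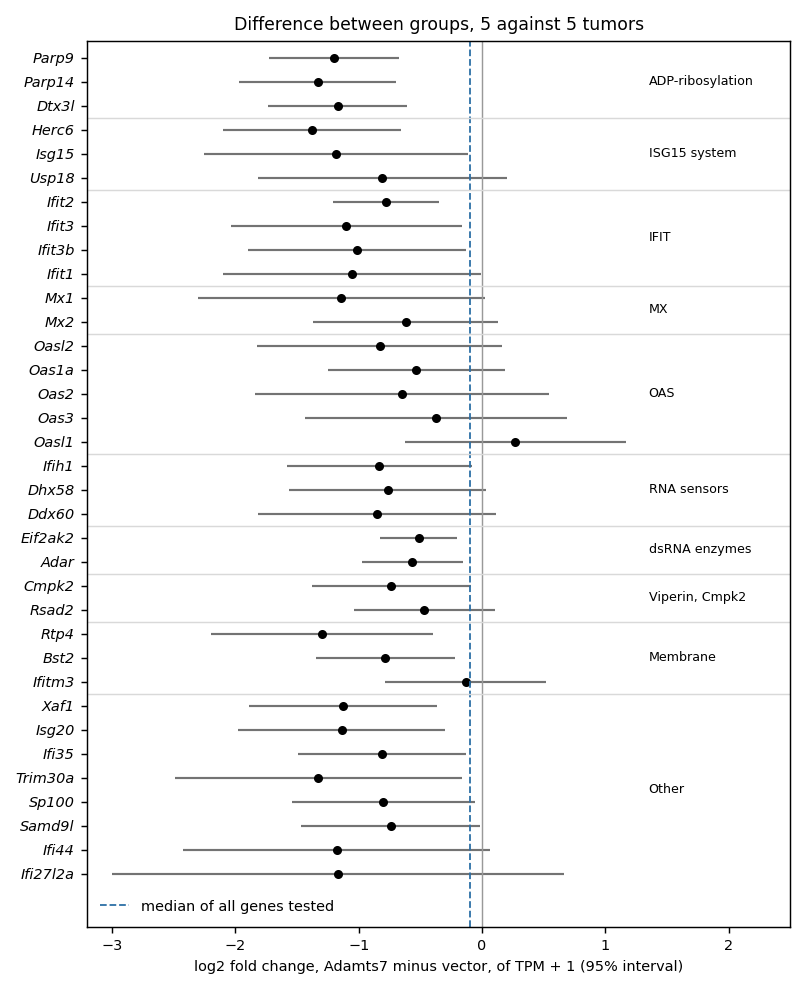
Log2 fold change (Adamts7 over vector, log2(TPM + 1) scale) of the 35 genes with 95% intervals from limma; the dashed line is the median of all 15276 genes, -0.10. Intervals of 21 genes lie wholly below 0, and Oasl1 is the gene with a positive value.

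The mono-ADP-ribosyltransferase genes Parp9 and Parp14 and the ubiquitin ligase gene Dtx3l showed the clearest separation. Parp9 and Dtx3l proteins form a complex, and Parp14 belongs to the same enzyme family as Parp9. In the RefSeq gene order on chromosome 16 the 3 genes follow each other with no protein-coding gene between them. Parp9 was at 35.6, 27.1, 29.8, 22.0 and 26.3 TPM in the Adamts7 tumors, numbered 1 to 5, and at 52.0, 41.0, 103, 62.6 and 86.2 TPM in vector tumors 1 to 5. The groups did not overlap, with means of 28.2 ± 5.01 and 69.0 ± 25.3 TPM (SD, n = 5 each). The log2 fold change of Parp9 was -1.20 (SE 0.24, 95% interval -1.73 to -0.67), which missed the threshold in limma (adjusted p = 0.0695).

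Parp14 was at 19.8, 13.2, 16.7, 10.9 and 8.69 TPM in the Adamts7 tumors and at 24.9, 22.0, 52.6, 35.2 and 51.6 TPM in the vector tumors. Dtx3l was at 16.3, 13.3, 13.8, 10.6 and 9.52 TPM against 20.1, 19.0, 45.2, 30.8 and 40.5 TPM. In both genes every Adamts7 tumor lay below every vector tumor, and vector tumors 1 and 2 were the closest to the Adamts7 group. The log2 fold changes were -1.33 for Parp14 (SE 0.29) and -1.17 for Dtx3l (SE 0.26), each with an adjusted p of 0.084 in limma. These 3 were the ones of the 35 genes whose groups did not overlap (8.57%, against 3.78% of all genes lower without overlap). None of the 35 was higher without overlap. Of the other 32 genes, 6 overlapped only through Adamts7 tumor 1.

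The Isg15 system attaches the ubiquitin-like protein Isg15 to other proteins: Herc6 is its main ligase in the mouse and Usp18 removes the tag and dampens receptor signalling. Herc6 was at 17.9, 9.97, 11, 10.9 and 8.69 TPM in the Adamts7 tumors and at 17.6, 20.6, 61.0, 28.8 and 44.8 TPM in the vector tumors. Its groups overlapped by a small margin, since Adamts7 tumor 1 lay just above vector tumor 1. The log2 fold change of Herc6, -1.38 (SE 0.33), was the most negative of the 35 (limma, adjusted p = 0.0949). Isg15 was at 106, 79.4, 85.4, 39.5 and 29.8 TPM against 67.4, 76.7, 302, 139 and 250 TPM. Vector tumors 1 and 2 had less Isg15 than Adamts7 tumors 1 to 3, and the log2 fold change of -1.19 (SE 0.48) had a limma adjusted p of 0.217. Usp18 ranged from 8.00 to 33.9 TPM in Adamts7 and from 14.5 to 61.6 TPM in vector tumors, with a log2 fold change of -0.81 (SE 0.46, limma adjusted p = 0.328).

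The Ifit genes encode proteins that bind foreign RNA ends. Ifit2 was at 31.4, 22.3, 23.9, 19.2 and 26.0 TPM in the Adamts7 tumors and at 32.8, 31.4, 54.1, 43.7 and 55.2 TPM in the vector tumors. The highest Adamts7 tumor, number 1, was level with vector tumor 2, and the other 4 lay below the vector group. Ifit2 had a log2 fold change of -0.78 (SE 0.19, limma adjusted p = 0.105). Ifit3 ranged from 20.2 to 77.2 TPM against 49.8 to 162 TPM, Ifit3b from 4.22 to 13.4 against 7.95 to 28.4 TPM, and Ifit1 from 5.42 to 14.7 against 8.06 to 43.0 TPM. Their log2 fold changes were -1.10, -1.01 and -1.06, with overlapping groups and limma adjusted p between 0.198 and 0.244. Ifit3 and Ifit3b are close copies that the authors' counting could split between them, so each value alone is uncertain.

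Mx1 and Mx2 belong to a family of GTPase genes whose working products trap viral nucleocapsids. The Mx1 allele of C57BL/6 mice is known not to give a working protein, although its RNA can be measured. Whether Mx2 gives a working protein cannot be read from its RNA. Mx1 was at 10.2, 3.72, 6.14, 2.12 and 2.33 TPM in the Adamts7 tumors and at 3.27, 6.37, 25.0, 10.4 and 20.9 TPM in the vector tumors. Adamts7 tumor 1 lay above vector tumors 1 and 2, and the log2 fold change of -1.14 (SE 0.53) had an interval of -2.30 to 0.02 (limma, adjusted p = 0.255). Mx2 ranged from 2.35 to 5.92 TPM against 2.99 to 13.0 TPM, a log2 fold change of -0.62 (SE 0.34, limma adjusted p = 0.315).

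The Oas genes encode enzymes that sense double-stranded RNA and activate RNase L, and the Oas-like genes encode relatives, of which Oasl1 is known to restrain Irf7 translation. None of the 5 had an unadjusted p under 0.05, against 20.2% of all genes, and their median log2 fold change was -0.53. Oasl2 was at 107, 63.6, 85.0, 36.0 and 35.6 TPM in the Adamts7 tumors and at 55.9, 61.7, 219, 93.8 and 193 TPM in the vector tumors. Adamts7 tumor 1 lay above 3 of the vector tumors, and the log2 fold change was -0.83 (SE 0.45, limma adjusted p = 0.310). Oas2 was at 29.0, 10.7, 12.2, 3.55 and 5.61 TPM against 9.27, 6.44, 27.4, 19.3 and 29.1 TPM. The groups covered nearly the same range, and the log2 fold change of -0.65 (SE 0.54) had an interval of -1.84 to 0.54.

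Oas3 was at 16.3, 10.4, 9.34, 3.25 and 2.60 TPM in the Adamts7 tumors and at 4.46, 5.42, 14.9, 12.9 and 13.4 TPM in the vector tumors. Its highest value was in Adamts7 tumor 1, and the log2 fold change was -0.37 (SE 0.48, interval -1.43 to 0.69, limma adjusted p = 0.667). Oasl1 was at 18.3, 16.3, 16.2, 6.61 and 4.31 TPM against 4.59, 8.48, 13.2, 7.35 and 13.5 TPM. Adamts7 tumors 1 to 3 were above every vector tumor, whereas Adamts7 tumors 4 and 5 lay in the lower part of the vector range or below it. The log2 fold change of Oasl1 was 0.27 (SE 0.41, interval -0.62 to 1.17, limma adjusted p = 0.714). Oas1a ranged from 13.2 to 50.1 TPM in Adamts7 and from 32.0 to 51.5 TPM in vector tumors, with a log2 fold change of -0.53 (SE 0.32, limma adjusted p = 0.360). Oas3, with the ISRE letters printed above, and Herc6, with none, lay near opposite ends of the 35 by difference. The reverse also occurred: Trim30a, with ISRE letters, was at -1.33 and Oasl1, with none, at 0.27. The median log2 fold change was -0.83 for the 13 genes with ISRE letters and -0.81 for the 13 matched genes without. For the 9 genes with no promoter sequence to search, Parp9 and Parp14 among them, it was -1.14.

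**Figure D3:**
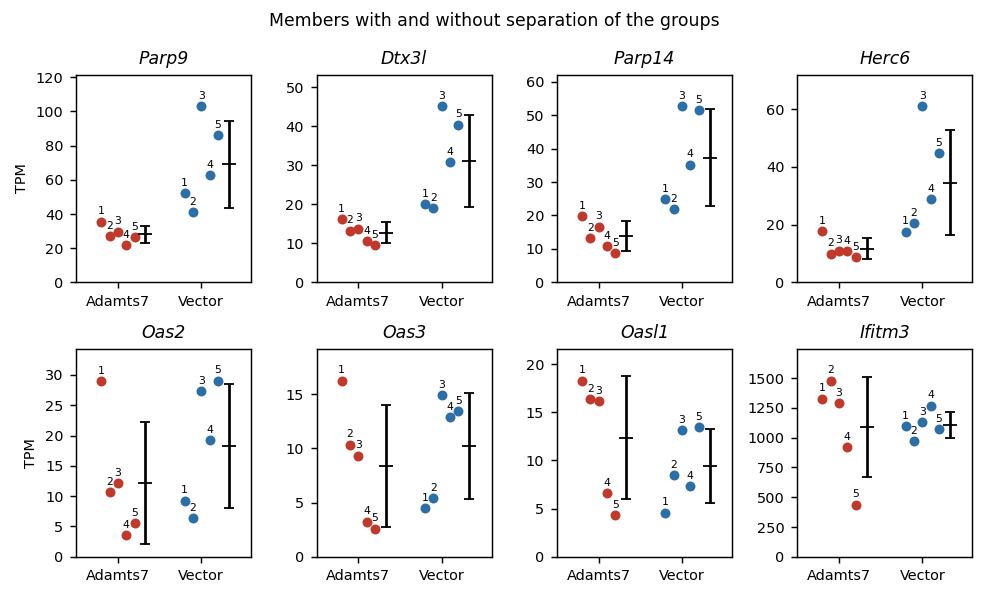
TPM of Parp9, Dtx3l, Parp14, Herc6, Oas2, Oas3, Oasl1 and Ifitm3 in each tumor (points, numbered by tumor) with the group mean and SD (n = 5). Groups are apart for Parp9, Dtx3l and Parp14, touch for Herc6, and overlap broadly for the other 4 genes.

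The RNA sensors Ifih1 (MDA5), Dhx58 (LGP2) and Ddx60 bind viral RNA in the cytoplasm. Ifih1 was at 13.8, 8.50, 9.34, 6.04 and 5.11 TPM in the Adamts7 tumors and at 9.90, 9.22, 27.0, 13.0 and 24.6 TPM in the vector tumors. Adamts7 tumor 1 exceeded 3 of the 5 vector tumors, and the log2 fold change was -0.83 (SE 0.34, limma adjusted p = 0.218). Dhx58 ranged from 6.38 to 20.6 TPM in Adamts7 and from 12.1 to 32.9 TPM in vector tumors, and Ddx60 from 1.90 to 5.48 against 2.85 to 15.4 TPM. Their log2 fold changes of -0.77 and -0.85 had limma adjusted p of 0.264 and 0.294.

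Eif2ak2 encodes PKR, which halts translation on double-stranded RNA, and Adar encodes the enzyme that edits adenosine in such RNA. Eif2ak2 was at 23.0, 15.3, 18.0, 16.3 and 17.8 TPM in the Adamts7 tumors and at 23.9, 21.1, 27.3, 29.2 and 29.6 TPM in the vector tumors. The overlap came from Adamts7 tumor 1 alone, above vector tumor 2, and the spread within groups was small. The log2 fold change of Eif2ak2 was -0.51 (SE 0.14, interval -0.83 to -0.20, limma adjusted p = 0.124). Adar was at 41.2, 27.6, 32.9, 31.0 and 22.7 TPM against 41.4, 33.1, 56.8, 52.3 and 48.5 TPM. Here too Adamts7 tumor 1 was the one that reached into the vector group, and the log2 fold change was -0.57 (SE 0.18, limma adjusted p = 0.155).

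Rsad2 encodes viperin, which makes a chain-terminating nucleotide, and Cmpk2 next to it on chromosome 12 encodes a nucleotide kinase. Cmpk2 was at 27.6, 14.8, 18.8, 11.4 and 10.2 TPM in the Adamts7 tumors and at 18.6, 18.4, 33.2, 30.3 and 38.6 TPM in the vector tumors, with overlap from Adamts7 tumors 1 and 3. Its log2 fold change was -0.74 (SE 0.29, limma adjusted p = 0.206). Rsad2 ranged from 6.35 to 14.3 TPM against 10.4 to 20.6 TPM, with a log2 fold change of -0.47 (SE 0.26, limma adjusted p = 0.317).

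Bst2 encodes tetherin, which holds budding virus at the cell surface, Ifitm3 a membrane protein that blocks viral fusion, and Rtp4 a chaperone of membrane receptors that is also induced by interferon. Rtp4 was at 70.0, 49.2, 61.7, 26.0 and 22.1 TPM in the Adamts7 tumors and at 63.2, 59.6, 165, 106 and 179 TPM in the vector tumors. Adamts7 tumors 1 and 3 reached the level of vector tumors 1 and 2, and the log2 fold change was -1.30 (SE 0.41, limma adjusted p = 0.146). Bst2 was at 636, 483, 480, 320 and 321 TPM against 566, 541, 1116, 700 and 964 TPM. Adamts7 tumor 1 overlapped vector tumors 1 and 2, and the log2 fold change was -0.78 (SE 0.26, limma adjusted p = 0.155). Ifitm3 was at 1328, 1481, 1292, 922 and 438 TPM in the Adamts7 tumors and at 1095, 971, 1130, 1270 and 1071 TPM in the vector tumors. Adamts7 tumors 1 to 3 were above every vector tumor and tumors 4 and 5 below every one. The group means were 1092 ± 419 and 1107 ± 109 TPM (SD, n = 5 each), a log2 fold change of -0.13 with an interval of -0.78 to 0.52 (limma, adjusted p = 0.810).

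Of the 8 other genes, Xaf1, a promoter of cell death, was at 40.3, 40.2, 28.9, 24.7 and 32.9 TPM in the Adamts7 tumors and at 39.2, 47.0, 141, 63.0 and 124 TPM in the vector tumors. Vector tumor 1 lay within the Adamts7 range, and the log2 fold change was -1.12 (SE 0.34, limma adjusted p = 0.140). Isg20, an RNA exonuclease gene, was at 12.6, 11.3, 6.52, 4.81 and 14.2 TPM against 13.4, 11.2, 37.9, 23.3 and 33.7 TPM, a log2 fold change of -1.14 (SE 0.38, limma adjusted p = 0.161). Unlike most of the 35 genes, Isg20 was highest of its group in the tumor labelled Adamts7 5. Ifi35 was at 48.0, 37.0, 39.5, 27.8 and 17.4 TPM against 36.0, 45.4, 83.1, 52.0 and 85.5 TPM, with overlap and a log2 fold change of -0.81 (SE 0.31, limma adjusted p = 0.194). Trim30a, Sp100, which builds nuclear bodies, Samd9l, Ifi44 and Ifi27l2a had log2 fold changes of -1.33, -0.80, -0.74, -1.18 and -1.17, all with overlapping groups. Their levels ran from 4.62 to 26.1 against 13.2 to 66.8 TPM for Trim30a, 35.6 to 74.8 against 45.5 to 161 TPM for Sp100, 16.8 to 28.2 against 21.0 to 64.5 TPM for Samd9l and 0.89 to 8.41 against 2.71 to 18.8 TPM for Ifi44. Ifi27l2a varied most: 8.93 to 147 TPM in Adamts7 and 35.8 to 335 TPM in vector tumors, with a log2 interval of -3.0 to 0.66.

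The tumors kept much the same order from gene to gene. The highest value was in vector tumor 3 for 21 genes and in vector tumor 5 for 10, and both lay above all 8 other tumors for 26. The lowest value was in the tumor labelled Adamts7 5 for 21 genes and in Adamts7 tumor 4 for 11. Adamts7 tumor 1 was the highest of its group for 33 genes and lay above vector tumor 1 for 28, vector tumor 2 for 30 and vector tumor 4 for 14. The mean log2(TPM + 1) over the 35 genes was 5.07, 4.46, 4.59, 3.83 and 3.82 in Adamts7 tumors 1 to 5 and 4.52, 4.56, 5.94, 5.22 and 5.85 in vector tumors 1 to 5. Vector tumors 1 and 2 thus lay inside the Adamts7 range. The spread inside each group was wide: the ratio of the highest to the lowest tumor had a median of 2.88 over the 35 genes among Adamts7 tumors and 3.26 among vector tumors.

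Without vector tumors 3 and 5 the differences were smaller. The median log2 fold change of the 35 genes was then -0.43, 33 were negative, none passed in limma and 7 had an unadjusted p under 0.05, against 12.5% of all genes in that fit. Leaving tumors out cannot bring separate groups together, and 3 of the 35 genes (8.57%), Parp9, Parp14 and Dtx3l, had no overlap. That share is near or below the background: 7.32% of all genes were lower without overlap here, 9.51% without the tumor labelled Adamts7 5 and 15.8% without all 3 of these tumors. Parp9 had a log2 fold change of -0.85 (SE 0.18, limma adjusted p = 0.117), Parp14 -0.96 and Dtx3l -0.82, while Isg15 was at -0.54 and Ifi27l2a at -0.04. Without the tumor labelled Adamts7 5, 1 of the 35 genes, Parp9, passed in limma (adjusted p = 0.0423), where 3.17% of all genes passed as lower. Parp9 also passed in limma without vector tumor 2 (adjusted p = 0.0451), where 0.275% of all genes passed in either direction.

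**Figure D4:**
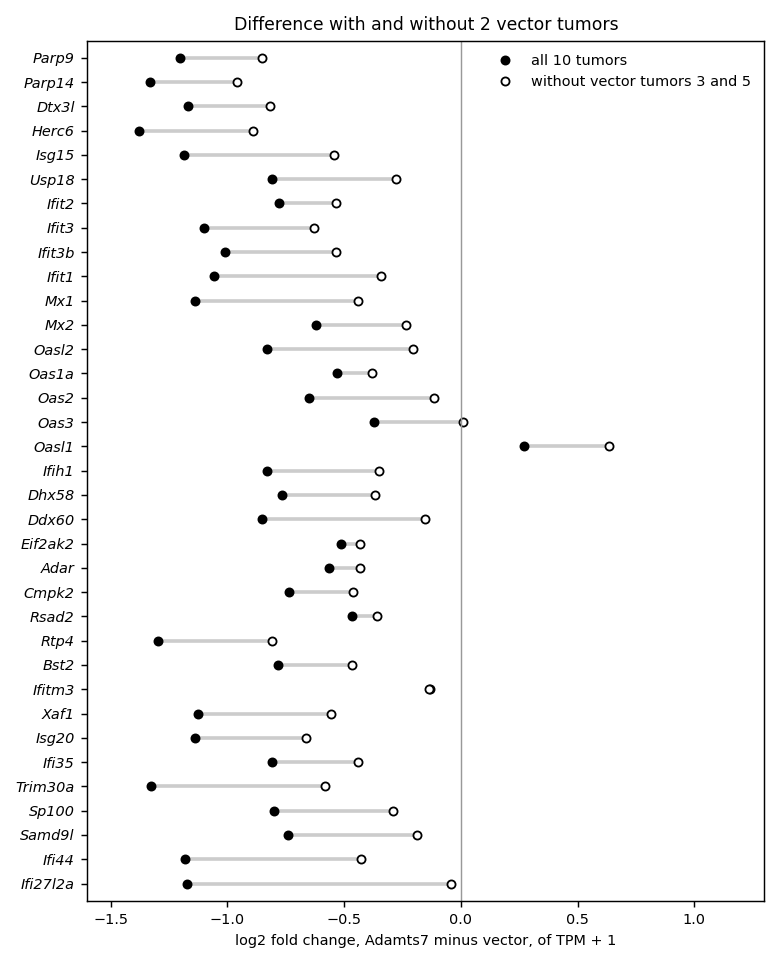
Log2 fold change (x axis, Adamts7 minus vector on the log2(TPM + 1) scale) of the 35 genes (rows) with all 10 tumors (filled points) and without vector tumors 3 and 5 (open points). Open points lie closer to 0 for most genes, with the median moving from -0.83 to -0.43, and Oasl1 moves further above 0.

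Genes upstream of the response were examined from lists of ligands, receptors, signalling and sensing genes. Of 21 interferon ligand genes, 6 had a row and 1, Ifng, reached the filter. Ifnb1 was listed at 0 TPM in 9 tumors and at 0.20 TPM in vector tumor 3. Ifng, the ligand of the other interferon pathway, was at 0.41, 0.75, 1.34, 0.19 and 0.96 TPM in the Adamts7 tumors and at 1.5, 2.52, 33.3, 4.52 and 21.5 TPM in the vector tumors. The groups of Ifng did not overlap, and the log2 fold change was -2.29 (SE 0.67, limma adjusted p = 0.135). In the authors' deposited table Ifng passed, at -3.98 (SE 0.80, adjusted p = 0.000122). Ifnar1, Ifnar2, Stat2, Irf9 and Irf7 did not pass in the authors' deposited table (adjusted p 0.0696 to 0.743).

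Of 6 receptor genes none passed, and their median log2 fold change was -0.32. In the fit of all tumors 0.223% of all genes passed in either direction, a share that applies beside the other upstream lists too. The list is wider than the type I receptor: Ifngr1, Ifngr2, Ifnlr1 and Il10rb had log2 fold changes of -0.51, -0.26, 0.14 and -0.05. Ifnar1 was at 48.0, 41.5, 38.3, 41.0 and 44.2 TPM in the Adamts7 tumors and at 58.5, 50.1, 55.2, 56.3 and 57.7 TPM in the vector tumors. The groups of Ifnar1 did not overlap although the difference was small, at -0.38 on the log2 scale (SE 0.10, limma adjusted p = 0.109). Ifnar2 ranged from 65.1 to 85.4 TPM against 84.5 to 137 TPM, a log2 fold change of -0.58 (SE 0.15, limma adjusted p = 0.113).

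Among 6 genes of the ISGF3 route none passed, 5 were negative and 4 had an unadjusted p under 0.05. Stat2 was at 31.9 to 70.5 TPM against 49.2 to 172 TPM and Irf9 at 24.4 to 40.5 TPM against 40.0 to 76.8 TPM, both with overlap. Their log2 fold changes were -0.88 (SE 0.37, limma adjusted p = 0.221) and -0.69 (SE 0.22, limma adjusted p = 0.147). The kinase gene Jak2 was at -0.49 on the log2 scale (limma, adjusted p = 0.155) and Jak1 at 0.02 (limma, adjusted p = 0.924).

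Of 17 genes of nucleic acid sensing none passed, 15 were negative (60.2% of all genes were), 7 had an unadjusted p under 0.05 (20.2% of all genes had), and the median was -0.43. Zbp1, a sensor of left-handed nucleic acid, was at 70.5, 58.0, 43.8, 19.6 and 22.9 TPM in the Adamts7 tumors and at 74.2, 71.1, 211, 140 and 203 TPM in the vector tumors. Its groups did not overlap, and the log2 fold change was -1.69 (SE 0.43, limma adjusted p = 0.108). Irf7, the factor that amplifies alpha interferon genes, was at 99.3, 60.1, 41.6, 16.5 and 17.2 TPM against 26.2, 35.3, 105, 40.9 and 110 TPM. Irf7 overlapped broadly, as the Oas genes did, and its log2 fold change was -0.51 (SE 0.56, limma adjusted p = 0.609). The adaptor gene Sting1, the nucleotide hydrolase gene Samhd1 and the kinase gene Ikbke had log2 fold changes of -0.42, -1.19 and -0.80, with limma adjusted p of 0.171 to 0.200. None of 5 negative regulators passed; Socs1, an inhibitor of the Jak kinases, ranged from 1.19 to 4.47 TPM against 4.47 to 32.7 TPM, a log2 fold change of -1.75 (SE 0.52, limma adjusted p = 0.135). The phosphatase gene Ptpn2, with -0.47, had the same adjusted p in limma.

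Without vector tumors 3 and 5 the upstream differences were smaller as well. The median log2 fold change was then -0.17 for the 6 receptor genes, against -0.32 with all tumors. It was -0.30 against -0.59 for the ISGF3 list, -0.28 against -0.43 for the sensing genes and -0.23 against -0.63 for the negative regulators. Without the tumor labelled Adamts7 5 in addition, these medians were -0.14, -0.25, -0.12 and -0.10. Ifng was at -1.12 (SE 0.32, limma adjusted p = 0.214) and Zbp1 at -1.22 (SE 0.44, limma adjusted p = 0.304) without the vector pair, and Irf7 was at 0.15, the opposite sign to that with all tumors.

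Genes listed as induced mainly by interferon-gamma gave larger differences in the same tumors. The list was chosen with earlier results of these data known, so its counts beside those of all genes are a description. Of the 13 such genes tested, 4 (Gbp4, Iigp1, Irgm1 and Tgtp1, GTPases of cell-autonomous immunity) fell in limma, where 0.196% of all genes did, and 12 had no overlap, where 3.78% of all genes were lower without overlap. Their median log2 fold change was -2.25, and it was -1.62 without vector tumors 3 and 5. In that fit 1 of the 13, Irgm1, passed, against 0.183% of all genes in either direction. Without the tumor labelled Adamts7 5, 8 of the 13 passed, where 3.17% of all genes passed as lower. Without all 3 of these tumors 9 of the 13 passed, against 5.24% of all genes in either direction, and the median was -1.50. Their summed TPM was 270 to 519 in the Adamts7 and 964 to 3961 in the vector tumors, without overlap, while that of the 35 antiviral genes was 1235 to 3168 and 2356 to 4795. The difference between these lists was not tested, and neither was which interferon acted.

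Markers of several host cell types differed between tumors beside the antiviral genes. The summed TPM of 11 macrophage markers was 2070, 1497, 1457, 906 and 427 in Adamts7 tumors 1 to 5, where the antiviral genes summed to 3168, 2744, 2619, 1718 and 1235 TPM. Ifitm3 is the largest part of that sum, and by mean log2 level, in which each gene counts alike, Adamts7 tumor 3 lay above tumor 2. In the vector tumors the macrophage sum was 1146, 1234, 3409, 833 and 3090 TPM, with tumors 3 and 5 highest as for the antiviral genes (2469, 2356, 4795, 3298 and 4382 TPM) and tumor 4 lowest, unlike them. The 8 T cell markers summed to 13.4 to 35.5 TPM in Adamts7 and to 36.1, 47.8, 320, 36.7 and 242 TPM in vector tumors. NK cell markers summed to 2.88 to 22.1 against 13.7 to 206 TPM, conventional dendritic markers to 9.42 to 22.9 against 13.5 to 107 TPM, and B cell markers to 1.13 to 4.71 against 3.68 to 34.9 TPM. Markers of plasmacytoid dendritic cells, known as strong makers of type I interferon, summed to 0.81 to 1.75 against 2.82 to 20.2 TPM, and their defining gene Siglech was at 0 to 0.20 against 0.14 to 2.39 TPM. Fibroblast sums were 227 to 1273 against 306 to 1061 TPM, endothelial sums 43.7 to 92.2 against 52.9 to 96.5 TPM, neutrophil sums 0.85 to 7.13 against 2.54 to 22.8 TPM and keratinocyte sums 0 to 0.41 against 0.39 to 2.29 TPM. No marker of these lists passed in limma over all genes. Without vector tumors 3 and 5 the median log2 fold change was 0.08 for the macrophage markers, against -0.73 with all tumors, and -0.81 for the T cell markers, against -1.78. It was -0.69 against -1.62 for NK, -0.33 against -1.07 for B cell and -0.44 against -0.96 for conventional dendritic markers. For plasmacytoid dendritic markers it was -0.97 against -1.32, for fibroblast 0.09 against -0.36 and for endothelial markers -0.11 against -0.12. Neutrophil markers were at 0.22 against -0.60, and melanocyte markers at -0.07 against 2.13. Only genes that reached the filter enter these medians: 2 of 5 plasmacytoid dendritic, 2 of 4 B cell and 2 of 6 neutrophil markers. The 2 plasmacytoid dendritic genes, Cox6a2 and Ly6d, averaged 0.51 and 0.39 TPM in Adamts7 and 2.30 and 4.64 TPM in vector tumors. They reached the filter through the vector group, as did Cd79a, Ncr1, Xcr1 and some other markers, so it favoured negative values for them. The part of these cells in the antiviral values was not tested.

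**Figure D5:**
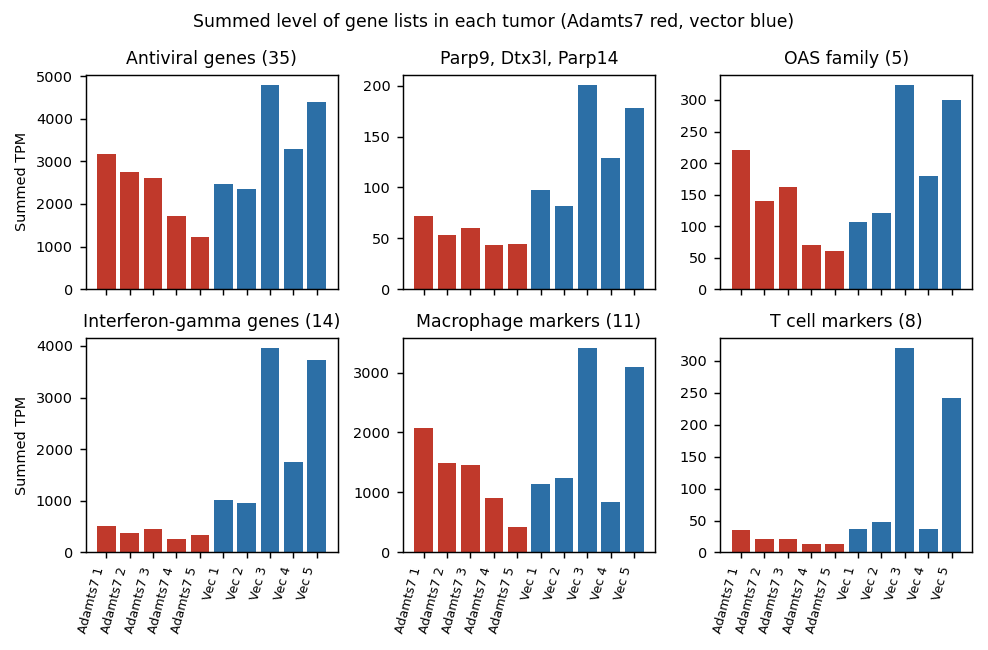
Bars give the summed TPM in each tumor (Adamts7 red, vector blue) of the 35 antiviral genes, the Parp9, Dtx3l and Parp14 group, the 5 Oas genes, 14 genes induced by interferon-gamma, 11 macrophage markers and 8 T cell markers. Vector tumors 3 and 5 are highest in every panel, and the groups are apart for the Parp9 group and the interferon-gamma genes. For the T cell markers they are barely apart (highest Adamts7 tumor 35.5 TPM, lowest vector tumor 36.1 TPM).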

How the data were processed

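The deposited values are log2(TPM + 1) per gene symbol, which the authors made with RSEM; RSEM, DESeq2 and the build mm39 are named per the submitters' processing notes. The annotation and the versions were not given in the sources used here. In addition, the authors' deposited comparison table was used as deposited: its log2 fold change, its test score (fold change over standard error), its mean normalized signal and its p-values, with 28805 of 30040 identifiers paired with symbols. Its direction, Adamts7 over vector, was read from Adamts7 itself.

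The 15276 genes whose mean over 10 tumors reached 1 TPM were fitted by group in limma 3.58.1 (R 4.3.3, trended variance, no other term), and p-values were adjusted by Benjamini and Hochberg's method at 0.05. The fit was tested on simulated data. Tables were made with pandas 2.3.3. Groups came from the titles, and no pair of tumors was identical. TPM sums were 995286 to 998019. The antiviral genes and all lists were chosen with earlier results of these data known. Every tumor's value is given for the 12 genes of smallest p, the 4 of largest p and the smallest p of each role, with Isg15 added after its values were seen; others are given by range. Pathway genes named are up to 4 of smallest p per list, plus Ifng, Ifnb1, Stat2, Irf9 and Irf7, and 1 gene that the rule also names is not reported here; Jak1 was added after its values were seen. Shared replicate numbers were checked and do not pair the tumors. Alternatives changed the pseudocount, the filter, the scaling or the variance model, weighted the tumors, added a replicate block or left tumors out. The antigen receptor table was not used.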

Additional observations from a re-analysis of the deposited data

How the results depend on the processing

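Genes passing over the whole table numbered 34 in the main analysis, 10 with no filter, 1219 with tumor weights, 800 without vector tumors 3 and 5 and the tumor labelled Adamts7 5, and 6 to 655 with 1 tumor left out, the last without the tumor labelled Adamts7 5. The same-numbered tumors correlated at -0.28 to 0.26, so the numbers do not pair them. With a replicate block 0 genes and 0 of the 35 passed. At an unadjusted p under 0.05 there were 13 of the 35 in that fit, against 19.8% of all genes. Of the 35 genes 0 passed in the main analysis, 5 with tumor weights (Parp9, Dtx3l, Herc6, Parp14, Ifit2), 1 (Parp9, limma adjusted p = 0.0499) without those 3 tumors, and 0 to 1 with 1 tumor left out.

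The median log2 fold change of the 35 genes was -0.83, with -0.47 under tumor weights, -0.43 without vector tumors 3 and 5, -0.28 without all 3 tumors, and -1.05 to -0.66 with 1 tumor left out. Quantile normalization moved the median of all genes from -0.10 to 0.04 and that of the 35 to -0.73. Of the 35 genes 3 had no overlap (3.78% of all genes were lower without overlap), 5 under median-of-ratios scaling (2.36%), 5 under quantile normalization (2.21%), and 3 to 9 with 1 tumor left out: 9 without Adamts7 tumor 1 (6.42%), 6 without vector tumor 2 (5.70%) and 3 without the tumor labelled Adamts7 5 (9.51%). Parp9, Parp14 and Dtx3l had no overlap under either scaling, the 2 settings that could have brought their groups together. The sign turned for 4 genes: Oas3 was at 0.0152 with tumor weights, 0.00749 without vector tumors 3 and 5 and 0.29 without all 3; Ifitm3 was at 0.0734 with tumor weights, -0.27 to 0.17 with 1 tumor left out (0.17 without the tumor labelled Adamts7 5) and 0.16 without all 3; Oas2 was at 0.0557 and Ifi27l2a at 0.0363 without all 3. The cause was not tested. The medians of the upstream, interferon-gamma and cell marker lists without these tumors were added after seeing the data. TPM keeps no depth, so the counting error of low genes such as Ddx60 is unknown.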
